A study of Mus musculus with 151 samples.

Results

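The genes that encode histone lysine methyltransferases and demethylases were followed in the female germ line and ovary of mice conceived naturally or by in vitro fertilization (IVF). Members were all gene names that begin with Kdm or Kmt followed by a number and at most 1 letter, the numbered Setd genes, and Setdb1, Setdb2, Ehmt1, Ehmt2, Suv39h1, Suv39h2, Suv420h1, Suv420h2, Nsd1, Ezh1, Ezh2 and Dot1l. This name rule found 44 of the 35976 genes in each of 7 tables of read counts.

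The tables hold ovaries at embryonic day E18.5 (4 Natural, 6 IVF), at 12 weeks (4 and 5) and at 39 weeks (5 and 5), E13.5 primordial germ cells (PGCs; 4 and 5), single oocytes at 12 weeks (36 and 40) and 39 weeks (9 and 10), and 12-week cumulus cells (5 and 5). Natural mice came from CF-1 females mated with B6/SJL males. IVF mice came from oocytes of superovulated CF-1 females fertilized with B6/SJL sperm in HTF medium and cultured in KSOM with amino acids at 5% oxygen to blastocysts, which were transferred without surgery to CF-1 recipients that had been mated with vasectomized CD-1 males. Both groups had the same parental strains, and the labels name no mutant allele. Superovulation of the egg donors, fertilization in vitro, culture and transfer went together in the IVF group and cannot be told apart. The adult females of both groups were delivered by cesarean section and fostered, and per the methods IVF deliveries were later by up to a day. For the fetuses the labels give E18.5 in both groups, while the methods place the collection of IVF fetuses at a later day than that of Natural ones, so conception and fetal age may not be separable in the E18.5 ovaries. The adult females that gave oocytes and cumulus cells were themselves superovulated with eCG and hCG in both groups, and each PGC library was made from 100 cells. One Natural ovary at 39 weeks is labelled both 39 and 40 weeks, and 1 Natural cumulus library carries a name that begins like those of IVF oocytes; both were kept in their labelled groups.

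Lysine methylation on histone tails is written by SET-domain enzymes and by DOT1L, and is removed by amine oxidases (KDM1A, KDM1B) and by JmjC-domain demethylases. Methylation of H3K4 by the KMT2 and SETD1 enzymes marks promoters and enhancers of active genes, methylation of H3K36 and H3K79 follows transcription, and methylation of H3K9, H3K27 and H4K20 is known for silencing and compact chromatin. In the female germ line the marks are rebuilt as the oocyte grows: KDM1B is known for clearing H3K4 methylation at imprinted genes before DNA methylation is laid down, KMT2B for H3K4 methylation in the oocyte, and EZH2 and SETDB1 for H3K27 and H3K9 methylation there.

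Total counts per library ran from 6995713 to 14830788 in E18.5 ovaries, from 2839022 to 43363799 in 12-week ovaries, from 18079970 to 38751638 in 39-week ovaries, from 4364495 to 8675189 in PGCs and from 2532824 to 6345249 in cumulus cells. Single oocytes held 839781 to 10879166 counts at 12 weeks and 2820748 to 31126357 at 39 weeks. The labelled cell types carried the markers listed for them. Summed oocyte markers reached 14632 to 29104 CPM (counts scaled to the same library size) in the 12-week oocyte sets. They reached 33.1 CPM at most in cumulus cells and 14.7 CPM at most in PGCs. Summed granulosa and cumulus markers reached 1506 to 2640 CPM in Natural and 1918 to 2770 CPM in IVF cumulus cells. Summed germ cell markers reached 3782 to 10700 CPM in PGCs. In 39-week IVF oocytes they reached 2642 to 6361 CPM, so that list alone does not set PGCs apart from oocytes. Kdm5d, the Y-linked H3K4 demethylase, was at 4 counts or fewer in every library.

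In ovaries at E18.5, 6 of the 42 members tested were higher in IVF and 0 were lower, against a background of 2.67% of all 16415 genes called higher and 2.75% called lower. Among the 6 were 4 H3K4 methyltransferases (Kmt2d, Kmt2c, Kmt2b, Setd1a), and the others were Dot1l, the H3K79 methyltransferase, and Kdm3a, an H3K9 demethylase. The median difference of the 42 members was 0.29 on the log2 scale and that of all genes was 0.00, and 36 members had a positive difference. Calls are edgeR quasi-likelihood tests with a Benjamini-Hochberg adjusted p below 0.05 over all genes of the table. The calls did not hold once each library's trend with exon length was taken out, as described below.

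Kmt2d, which methylates H3K4 at enhancers, stood at 337, 335, 373 and 291 CPM in the Natural ovaries and at 528, 430, 621, 563, 561 and 566 CPM in the IVF ovaries. Its mean was 334 ± 33.6 (SD, n = 4) in Natural and 545 ± 63.9 (SD, n = 6) in IVF, a log2 difference of 0.71 (SE 0.12, adjusted p = 0.0129). Every IVF ovary lay above every Natural ovary. Kmt2c, its paralog, stood at 298, 253, 198 and 244 CPM in Natural and between 309 and 481 CPM in IVF (median 417), a log2 difference of 0.70 (SE 0.14, adjusted p = 0.0174). The lowest IVF value of Kmt2c was close to the highest Natural value.

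Kmt2b, an H3K4 methyltransferase of CpG-rich promoters, was measured at 177, 184, 174 and 162 CPM in Natural and between 224 and 258 CPM in IVF (median 243), a log2 difference of 0.49 (SE 0.09, adjusted p = 0.0129). Setd1a, the catalytic subunit of a complex that lays down H3K4 trimethylation, was measured at 127, 157, 165 and 164 CPM in Natural and between 192 and 221 CPM in IVF (median 213), a log2 difference of 0.45 (SE 0.10, adjusted p = 0.0245). For both genes every IVF ovary lay above every Natural ovary. The other H3K4 methyltransferases moved in the same direction without a call: Kmt2a at 0.46 (SE 0.13, adjusted p = 0.0547), with no overlap of the groups, and Setd1b at 0.24 (SE 0.10, adjusted p = 0.158), with overlap. All 6 members counted here and below as H3K4 methyltransferases (Kmt2a to Kmt2d, Setd1a and Setd1b) thus had a positive difference, with a median of 0.47 on the log2 scale. Setd7 and Kmt2e were counted with the other SET-domain proteins.

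Dot1l was measured at 99.1, 146, 138 and 111 CPM in Natural and between 155 and 187 CPM in IVF (median 177), a log2 difference of 0.49 (SE 0.12, adjusted p = 0.0328). Kdm3a, which removes H3K9 methylation, was measured at 105, 97.3, 91.7 and 96.6 CPM in Natural and between 123 and 163 CPM in IVF (median 134), a log2 difference of 0.48 (SE 0.10, adjusted p = 0.0212). Both groups were again apart for each gene. The 9 H3K9 and H3K36 demethylases all had a positive difference (median 0.29, 1 called), and Kdm4d, which is highest in testis, had the widest one at 1.20 but at 0.816 to 4.95 CPM and without a call.

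In all, 11 members had every IVF value above every Natural value and 0 had every IVF value below, against 4.28% and 4.33% of all genes. Beyond the called genes and Kmt2a these were Setd5 (0.33), a SET-domain protein, Kdm4a (0.28), a demethylase of H3K9 and H3K36, Ehmt1 (0.31), the partner of Ehmt2 in H3K9 dimethylation, and Kdm2b (0.31), an H3K36 demethylase that binds unmethylated CpG islands, with adjusted p of 0.0622, 0.0632, 0.0774 and 0.0999. The H3K27 methyltransferases had no such difference. Ezh2 was at 53.3 to 79.8 CPM in Natural and 53.4 to 70.7 CPM in IVF (log2 difference -0.12, SE 0.13), and Ezh1 differed by 0.02 (SE 0.17). Among the remaining members that are given in every table, Ehmt2 (0.12), Setdb1 (0.04), Setd2 (0.34), Kdm1a (0.02), Kdm5b (0.05) and Kdm6b (0.20) overlapped between groups and were not called.

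**Figure D1:**
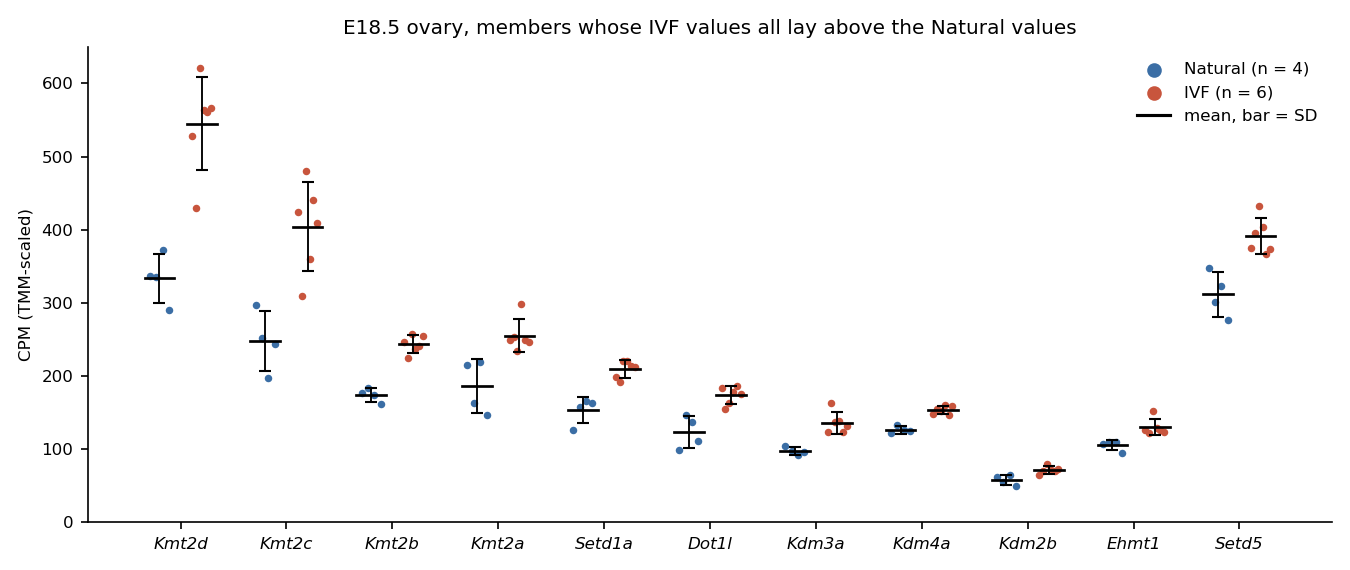
CPM on the vertical axis of the 11 members whose IVF values (red, 6 ovaries) all lay above the Natural values (blue, 4 ovaries) at E18.5. Points are ovaries, horizontal lines are means and bars are SD, and the widest gap is that of Kmt2d, at 334 CPM in Natural and 545 CPM in IVF.

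The difference at E18.5 went with exon length in all genes. Among the 2449 genes with more than 6 kb of exons the median log2 difference was 0.24, with 215 genes called higher and 4 called lower, and among the 3759 genes under 2 kb it was -0.23, with 26 called higher and 301 lower. Members are long: their median exon length was 6027.5 bases against 3254.5 for all genes tested, and 22 of the 44 exceed 6 kb. The 21 tested members in that class had a median difference of 0.36. Long genes were also placed differently in single libraries, since the gap between the long and the short class was 0.17, -0.39, -0.26 and -0.55 (log2) in the Natural ovaries and 0.08 to 0.26 in the IVF ovaries. The first Natural ovary thus sat within the IVF range.

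With offsets that remove each library's trend over 10 classes of exon length, an alternative chosen after seeing the data, 0 members were called (7 at an unadjusted p under 0.05 by edgeR; DESeq2 without such offsets called 11) and the members' median fell to 0.11. Kmt2d then differed by 0.43 (adjusted p = 0.102), Kmt2c by 0.44 (0.133), Kdm3a by 0.37 (0.0666), Dot1l by 0.31 (0.242), Setd1a by 0.26 (0.273) and Kmt2b by 0.20 (0.307), each an edgeR value with Benjamini-Hochberg adjustment. All 6 kept a positive difference. Over all 16415 genes the offsets left 145 called higher and 114 lower, and DESeq2 without offsets called 933 and 991. Without the first Natural ovary and without offsets, 16 members were called.

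**Figure D2:**
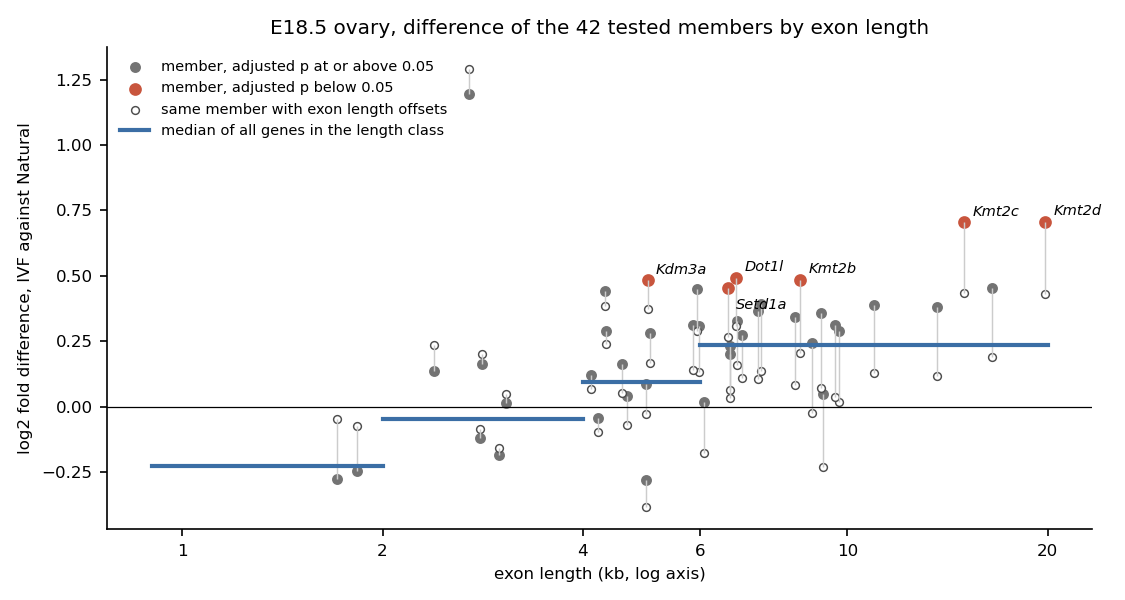
Log2 difference between IVF and Natural at E18.5 (vertical axis) of the 42 tested members against exon length in kb (log axis). Filled points are the fit without offsets (red, called), open points the fit with exon length offsets, and blue lines the median of all genes in each length class, from -0.23 under 2 kb to 0.24 over 6 kb.

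Summed markers of other cells also differed between the E18.5 groups. The 6 erythroid markers summed to 599 to 1600 CPM in Natural and 1601 to 4582 CPM in IVF, and the 10 oocyte markers (Oosp1 at 0 in both groups) to 247 to 806 CPM in Natural and 69.7 to 359 CPM in IVF. The part of these cells in the members' differences was not tested. In read counts of whole ovaries, fewer cells of a type and less RNA per cell cannot be told apart. The study counted germ cells in E18.5 ovaries by GCNA1 staining and reported no difference between IVF and Natural. Kdm1b, which is known to be high in growing oocytes, stood at 241, 223, 89.3 and 233 CPM in Natural and at 217, 51.1, 149, 93.0, 224 and 237 CPM in IVF, and the 3 ovaries lowest in Kdm1b (the third Natural, the second and the fourth IVF) were also the 3 lowest in summed oocyte markers, at 247, 69.7 and 113 CPM.

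Partners of these enzymes were counted from lists. Of 75 listed genes 67 were tested at E18.5, with 5 called higher, 0 called lower and a median of 0.12, against 2.67% and 2.75% of all genes. The 5 were Mtf2 (0.70), a PRC2 accessory subunit, Ncoa6 (0.42) and Hcfc1 (0.48), which belong to H3K4 methyltransferase complexes, Iws1 (0.56), which recruits SETD2 to transcribing polymerase, and Ash1l (0.59), an H3K36 methyltransferase outside the name rule. With exon length offsets 1 of the 67 was called, Mtf2 (0.64, adjusted p = 0.0317 by edgeR), and the median fell to 0.04.

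In 12-week ovaries, 0 of 42 members were called, with 1 at an unadjusted p under 0.05 by edgeR, and 0.00567% of all genes were called in either direction. DESeq2 called 0 members, against 186 of 17628 genes higher and 474 lower. The members' median difference was 0.10 against 0.01 for all genes. Kdm1a, the LSD1 demethylase of H3K4, was at 79.3, 78.1, 78.2 and 75.4 CPM in Natural and at 81.1, 80.8, 99.4, 101 and 84.6 CPM in IVF (log2 difference 0.20, SE 0.09, adjusted p = 0.354). Setdb1, which trimethylates H3K9, was at 74.2, 71.8, 71.9 and 76.7 CPM in Natural and at 77.8, 85.7, 81.8, 81.5 and 77.5 CPM in IVF (0.13, SE 0.07, adjusted p = 0.381). The groups of both genes touched without overlapping, as did those of 2.46% of all genes in this direction.

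Ehmt2, the main H3K9 dimethyltransferase, was the 1 member with every IVF value lower at 12 weeks (3.64% of all genes), at 270.3, 278, 271 and 269 CPM in Natural and 247 to 269 CPM in the 5 IVF ovaries (median 262), a difference of -0.08 (SE 0.07, adjusted p = 0.644). Kmt2e, a SET-domain protein that binds H3K4 trimethylation, had the smallest unadjusted p (0.26, SE 0.10, adjusted p = 0.292) with overlapping groups. Of the E18.5 genes, Kmt2d was at 187 ± 24.1 (SD, n = 4) and 191 ± 44.4 CPM (SD, n = 5), and Kmt2c at 104 ± 4.90 and 97.8 ± 16.0 CPM. Summed markers of oviduct and ciliated epithelium were 3360 to 7816 CPM in the Natural ovaries and 73.2 to 3164 CPM in the IVF ovaries, and their part in these values was not tested. The other named members differed by -0.10 (Kdm6b) to 0.22 (Ezh2, SE 0.18) on the log2 scale.

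In 39-week ovaries, 0 of 42 members were called, with 5 at an unadjusted p under 0.05 by edgeR, against 0.262% of all genes called. DESeq2 called 0 members, against 593 of 17186 genes higher and 647 lower. Kdm1a again had the higher mean in IVF, at 62.8, 69.4, 64.3, 72.9 and 67.2 CPM in Natural and 79.8, 87.1, 71.0, 84.4 and 76.7 CPM in IVF (0.25, SE 0.08, adjusted p = 0.147), with 1 IVF ovary inside the Natural range. Ehmt1 was the 1 member with every IVF value higher (2.27% of all genes), at 50.8, 62.0, 57.0, 64.0 and 63.0 CPM in Natural and 65.0, 66.6, 67.2, 71.8 and 70.6 CPM in IVF (0.20, SE 0.08, adjusted p = 0.218). By role, all 5 tested H3K9 methyltransferases had a positive difference (median 0.20) and all 6 H3K4 methyltransferases a negative one (median -0.18), with no member of either role called. Of all genes, 53.5% had a positive difference. Role and exon length cannot be told apart here. The H3K4 methyltransferases span 6612 (Setd1a) to 19830 bases (Kmt2d), and the H3K9 methyltransferases 3910 (Setdb2) to 5974 bases (Ehmt1). Tested members over 6 kb had a median of -0.06 and those of 4 to 6 kb 0.15, against 0.02 and 0.04 for all genes of these lengths. Summed luteal and theca markers ran from 19626 to 32251 CPM in these Natural ovaries and from 11271 to 24822 CPM in IVF, and granulosa and cumulus markers from 609 to 1725 CPM and from 1075 to 3383 CPM. Their part in the members' differences was not tested. Kdm5b (0.25), Suv39h1 (0.33) and Kdm6a (-0.24) were the other members at an unadjusted p under 0.05, and Ezh2 (0.20, SE 0.17), Setdb1 (0.10) and Dot1l (-0.06) were further inside their spread.

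The spread between 39-week ovaries was wide for Kmt2d, the longest member. It was at 188, 277, 258, 399 and 494 CPM in Natural and at 162, 287, 293, 270 and 372 CPM in IVF. Neither group stood above the other, and the difference of -0.22 had an SE of 0.28. One IVF ovary (replicate 1) stood apart in all genes, with a median correlation of 0.909 with the other ovaries of its table and the lowest Kmt2d value, and summed oviduct markers reached 8961 CPM in 1 IVF ovary against 248 CPM at most in Natural.

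**Figure D3:**
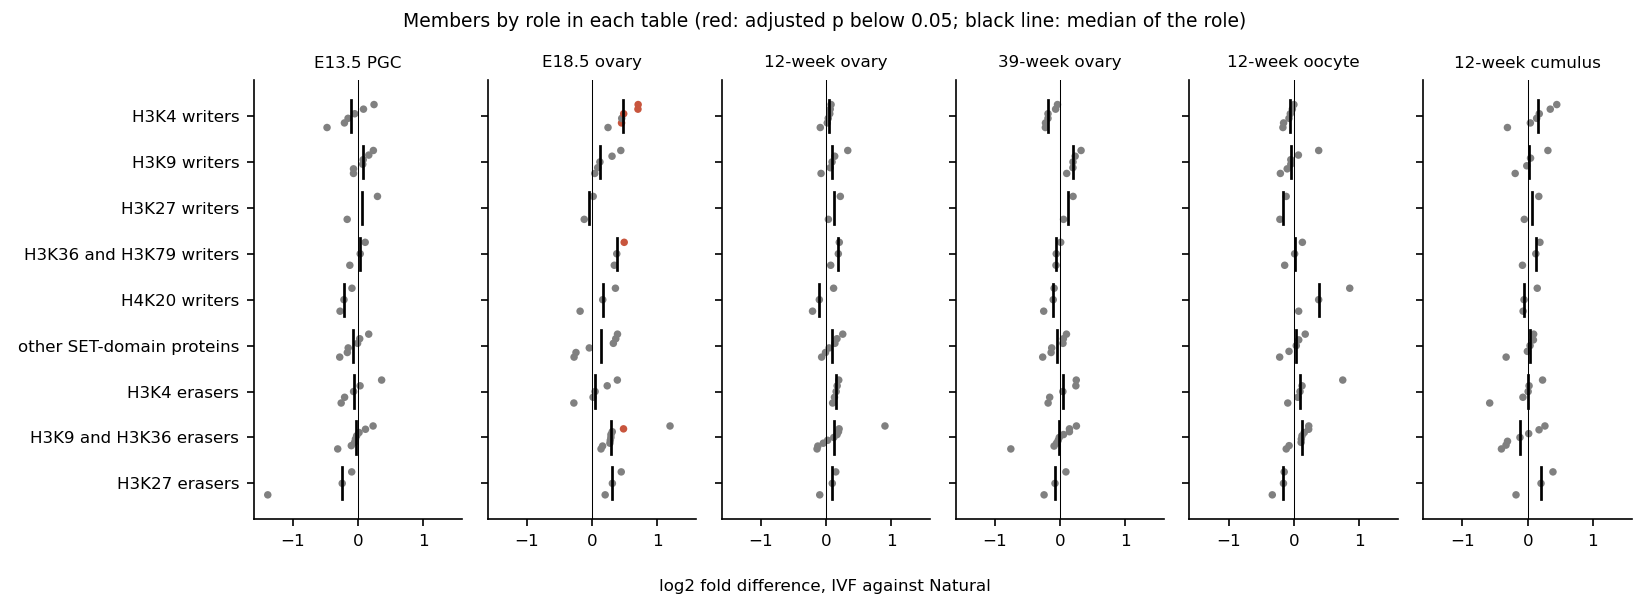
Log2 difference between IVF and Natural (horizontal axis) of each tested member in 6 tables, grouped by role on the vertical axis, with called members in red and the median of each role as a black line. The E18.5 ovary holds the 6 called members, and the other 5 tables hold 0.

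In E13.5 PGCs, 0 of 42 members were called by edgeR, with 0 at an unadjusted p under 0.05 and 0 called by DESeq2, and 0% of all 12763 genes were called. Ezh1 was at 52.4, 63.1, 47.1 and 73.4 CPM in Natural and at 73.0, 77.9, 65.8, 70.4 and 75.4 CPM in IVF (0.30, SE 0.18, adjusted p = 1). Kdm1b was at 98.4, 64.0, 48.0 and 26.4 CPM in Natural and at 82.1, 65.6, 89.0, 61.8 and 81.2 CPM in IVF (0.36, SE 0.31, adjusted p = 1). Natural PGCs varied more than IVF PGCs for both genes, and the groups overlapped. Ezh2 was at 95.7 to 117 CPM in Natural and 81.5 to 110.2 CPM in IVF (-0.17, SE 0.17), and Kdm6b, with -1.39, had an SE of 1.25. The rest of the named members differed by -0.48 (Setd1b, SE 0.48) to 0.23 (Ehmt2, SE 0.21).

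The single oocytes at 12 weeks were summed into 5 sets a group by the start of their names, taken here as oocytes collected together. Of 41 members tested, 0 were called, with 2 at an unadjusted p under 0.05 by edgeR, and 0.0277% of all genes were called. DESeq2 called 0 members, against 27 of 14444 genes higher and 19 lower. Kdm5b, an H3K4 demethylase, was at 3.93, 2.22, 3.33, 4.57 and 6.42 CPM in the Natural sets and at 6.17, 6.75, 11.0, 7.38 and 3.34 CPM in the IVF sets (0.75, SE 0.33, adjusted p = 0.745). Kdm6b, an H3K27 demethylase, was at 147, 119, 174, 179 and 123 CPM in Natural and at 126, 125, 111, 98.0 and 130 CPM in IVF (-0.33, SE 0.15, adjusted p = 0.745). The sets overlapped for each gene. Within the single oocytes, Kdm6b ran from 14.8 to 209 CPM in Natural and from 16.7 to 213 CPM in IVF, with medians of 146 and 122 CPM. Ezh2 was at 579 to 806 CPM in the Natural sets and 508 to 702 CPM in the IVF sets (-0.21, SE 0.13), and the other named members differed by -0.16 (Setd1b) to 0.10 (Kdm1a).

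In 12-week cumulus cells, 0 of 38 members were called, with 0 at an unadjusted p under 0.05 by edgeR, against 0.00973% of all genes called. DESeq2 called 0 members, against 13 of 10280 genes higher and 11 lower. Kmt2b was at 5.07 to 11.1 CPM in Natural and 6.89 to 13.5 CPM in IVF (0.45, SE 0.25, adjusted p = 0.848), and Kdm7a, a demethylase of H3K9 and H3K27, was at 19.2 to 48.8 CPM and 22.9 to 51.3 CPM (0.39, SE 0.23, adjusted p = 0.848). Both genes overlapped between groups. The other named members differed by -0.58 (Kdm1b, SE 0.34) to 0.23 (Kdm1a, SE 0.27). The fit held the kind of library name as a term, since 3 libraries of each group carry one kind and 2 the other. Cumulus libraries varied in immune markers, which summed to 74.9 to 2367 CPM in Natural and 150 to 4417 CPM in IVF.

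Oocytes at 39 weeks were single cells without a label that ties them to animals, so each group was 1 sample, its counts were summed and nothing was tested. Summed counts gave Kmt2d 1018 CPM (exact 95% Poisson interval 1012 to 1024, counting error only) in 9 Natural oocytes and 646 CPM (643 to 650) in 10 IVF oocytes, a ratio of 1.58. Single oocytes ran from 403 to 1311 CPM and from 178 to 963 CPM, so the groups overlapped. Nsd1, an H3K36 methyltransferase, was at 206 CPM (204 to 209) in Natural and 106 CPM (105 to 108) in IVF, with single oocytes from 88.4 to 385 CPM and from 34.4 to 198 CPM.

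Among the 42 members with more than 3 counts in both 39-week sums, 6 were past 1.5-fold higher in IVF and 13 past 1.5-fold lower, against 21.9% and 37.3% of all 19091 genes, so neither share of the members was above the background. Higher in IVF were Kmt2a, Kdm4b, Kmt2e, Kdm8, Setdb2 and Kdm5a, the most abundant of them, Kdm8, at 7.84 and 15.0 CPM. The median over single oocytes was also higher in IVF for 3 of these 6 (Kmt2e, Kdm8 and Setdb2). Kmt2a and Kdm5a had medians of 0 in both groups, with a highest IVF oocyte of 16.3 and 7.09 CPM, and Kdm4b had a median of 0.503 CPM in Natural and 0.112 CPM in IVF with 1 IVF oocyte at 14.9 CPM. Lower in IVF were Dot1l, Kdm4a, Kdm7a, Kdm2a, Kdm3b, Nsd1, Setd3, Ehmt2, Suv39h1, Kdm5c, Suv420h1, Kdm4c and Kmt2d. The median over single oocytes was also lower in IVF for 10 of these 13, and the exceptions were Kdm4a, Kdm5c and Suv39h1. Kdm4a had medians of 14.7 CPM in Natural and 22.0 CPM in IVF with a highest Natural oocyte of 119 CPM, and Kdm5c had 11.1 and 12.9 CPM with a highest Natural oocyte of 114 CPM. Suv39h1 stood at 34.9 CPM in the Natural sum with a median of 12.1 CPM per oocyte and a highest oocyte of 140 CPM, while the IVF sum was 16.1 CPM with a median of 12.8 CPM. Ezh2 (144 and 138 CPM), Setdb1 (125 and 121 CPM), Kdm1b (100.5 and 100.4 CPM) and Kdm6b (50.5 and 52.1 CPM) were close in both sums. Kdm4d had 0 counts in the Natural sum and 484 in the IVF sum, from 4 oocytes. The members' median log2 ratio was -0.08 and that of all genes was -0.19. With TMM factors of the sums these turned to 0.14 and 0.03, with 7 members past 1.5-fold higher and 8 lower against 28.9% and 31.2% of all genes, and the Kmt2d ratio fell to 1.36. Oocyte markers ran lower in some Natural oocytes, at 2954 to 33932 CPM against 25394 to 36003 CPM in IVF. Erythroid markers summed to 115 to 18370 CPM in Natural and 2.34 to 27005 CPM in IVF oocytes. Natural oocyte 4 held 18228 genes with counts and IVF oocyte 7 held 23116, against 10902 to 15298 in the rest. The part of these oocytes in the sums was not tested.

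Ratios between paralogs do not depend on library scaling, and 8 pairs were compared between groups in 6 tables with exact two-sided permutation tests. A ratio can still carry a library's trend with exon length where the paralogs differ in length, as do Ezh2 (2802 bases) and Ezh1 (6081 bases). The part of length in the ratios was not tested. With these group sizes the smallest exact permutation p that could be reached was 0.00476 in E18.5 ovaries and 0.00794 in the other tables. A lone pair at that floor could not pass adjustment over the 48 tests, so the lack of adjusted calls decides little. Of the 48 tests, 3 gave a p below 0.05 before adjustment and 0 after it, with a smallest adjusted p of 0.571. These were Kdm1b to Kdm1a in 39-week ovaries (IVF minus Natural -0.40 on the log2 scale, exact permutation p = 0.0238), Kdm6b to Kdm6a in the same ovaries (0.36, exact permutation p = 0.0397) and Ezh2 to Ezh1 in PGCs (-0.49, exact permutation p = 0.0238).

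The ovary tables were joined on 1 scale to set the ages beside each other. Age, table and preparation cannot be told apart in these comparisons. From E18.5 to 12 weeks, 26 of 43 members fell and 4 rose in Natural ovaries, against 24.3% of all genes called lower and 25.3% called higher, and 31 fell and 5 rose in IVF ovaries, against 28.2% and 30.8%. The members' median was -0.59 in Natural and -0.62 in IVF, with 0.01 for all genes in both. Genes over 6 kb had medians of -0.27 and -0.43 in these comparisons, and with exon length offsets 22 members fell and 5 rose in Natural, and 25 fell and 5 rose in IVF.

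Kdm1b fell the most. It stood at 242, 204, 82.4 and 214 CPM in Natural ovaries at E18.5 and at 21.3, 26.9, 28.5 and 26.0 CPM at 12 weeks, a 7.23-fold drop (log2 -2.85, SE 0.33, adjusted p = 9.8e-08). In IVF ovaries it stood at 47.2 to 217 CPM (median 169) at E18.5 and at 24.4, 27.3, 28.2, 29.6 and 32.7 CPM at 12 weeks (log2 -2.39, SE 0.29). No 12-week ovary reached the lowest E18.5 ovary. Summed oocyte markers fell between the same tables, from 247 to 806 CPM to 117 to 270.4 CPM in Natural, while summed luteal and theca markers were at 34.9 to 62.3 CPM at E18.5 and 12052 to 24064 CPM at 12 weeks, and the part of this change in cell makeup was not tested.

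All 6 members counted as H3K4 methyltransferases (Kmt2a to Kmt2d, Setd1a and Setd1b, without Setd7) fell in both groups. Kmt2c fell by 1.18 (SE 0.18) on the log2 scale in Natural and by 1.94 (SE 0.16) in IVF, and Kmt2d fell by 0.76 (SE 0.24) and 1.40 (SE 0.21). The H3K4 demethylase Kdm5b fell by 1.19 and 1.08, the H3K36 demethylase Kdm2b fell by 1.20 and 1.31, Ezh2 fell by 0.98 and 0.62, and Kdm4d fell by 1.39 and 1.68. Few members rose. Kmt5a, the H4K20 monomethyltransferase, stood at 79.5, 49.9, 66.6 and 40.8 CPM in Natural ovaries at E18.5 and at 188, 191, 159 and 202 CPM at 12 weeks, a 3.13-fold rise (log2 1.65, SE 0.20), and rose by 1.76 (SE 0.17) in IVF. Its values at 12 weeks lay above every E18.5 value in both groups. Setd7, a monomethyltransferase of H3K4 and other proteins, rose by 0.92 and 0.56, Kdm7a by 0.65 and 0.52 and Ezh1 by 0.39 and 0.42. Ezh1 rose while Ezh2 fell in each group.

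**Figure D4:**
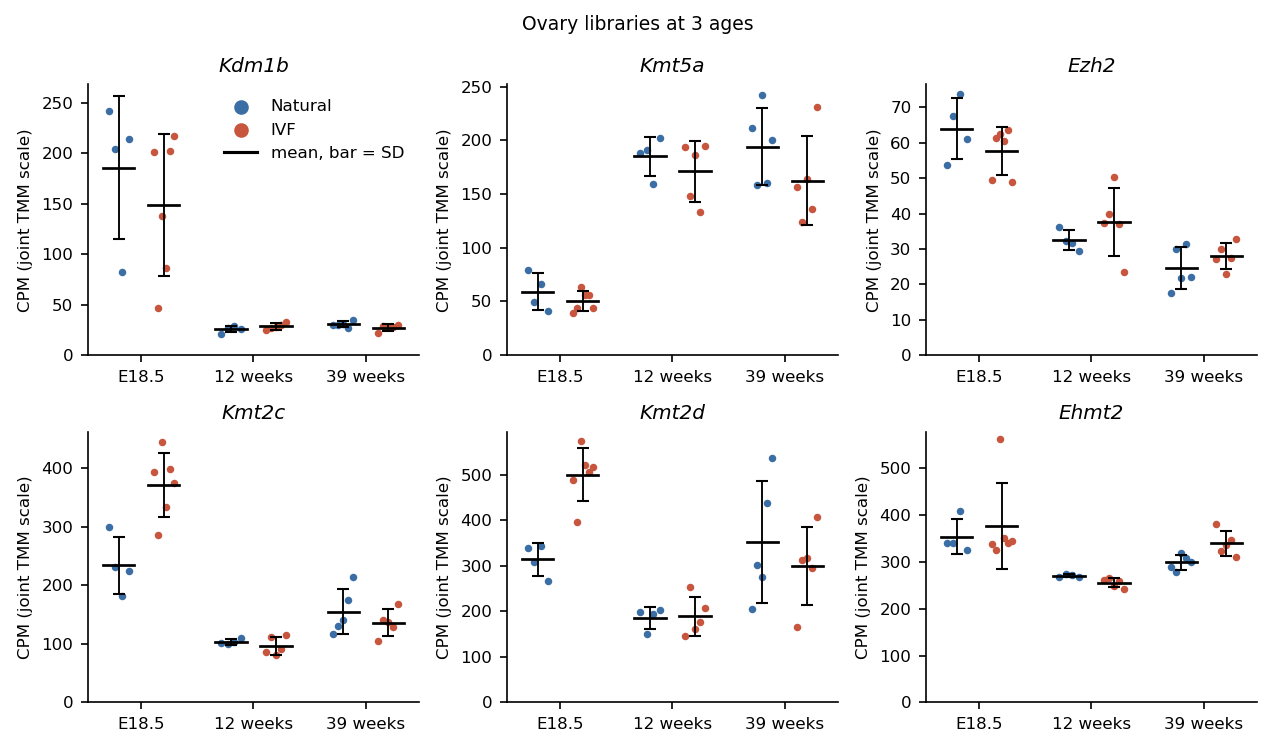
CPM on the joint scale (vertical axis) of 6 members in ovaries at 3 ages, with Natural in blue, IVF in red, means as lines and SD as bars. Kdm1b drops from 186 CPM in Natural at E18.5 to 25.7 CPM at 12 weeks, Kmt5a rises from 59.2 CPM to values without overlap, and Kmt2d falls and then rises.

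From 12 to 39 weeks, 14 of 43 members rose and 0 fell in Natural ovaries, against 10.0% and 11.6% of all genes, and 8 rose and 0 fell in IVF ovaries, against 4.23% and 1.96%. In Natural ovaries the risers included all 6 H3K4 methyltransferases, with Kmt2d at 198, 150, 194 and 203 CPM at 12 weeks and 205, 303, 275, 438 and 538 CPM at 39 weeks (log2 0.92, SE 0.23, adjusted p = 0.00602). Every 39-week value lay above every 12-week value, by little for the lowest. Kmt2e rose by 0.82 (SE 0.16), Kmt2a by 0.72 (SE 0.18), Setd1b by 0.65 (SE 0.13) and Kdm5c, an H3K4 demethylase, by 0.63 (SE 0.10). The H3K9 and H3K27 methyltransferases had medians of -0.01 and -0.08, with 0 called.

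In IVF ovaries Setd1b, the paralog of Setd1a, rose from 77.3, 113, 70.3, 75.5 and 76.5 CPM at 12 weeks to 107, 123, 120.2, 127 and 132 CPM at 39 weeks (log2 0.56, SE 0.12, adjusted p = 0.00983). One 12-week ovary lay within the 39-week range. Ehmt2 rose from 262, 266, 248, 259 and 242 CPM to 381, 324, 337, 347 and 311 CPM (log2 0.41, SE 0.11, adjusted p = 0.0261) without overlap. Nsd1 (0.45), Kdm2b (0.44) and Kmt2b (0.39) followed, with Kdm4b, Kdm5c and Kdm4a. Length bore on these comparisons too. Genes over 6 kb had medians of 0.27 in Natural and 0.23 in IVF, and with exon length offsets 5 of the 14 stayed called in Natural (Kdm5c, Setd1b, Kmt2a, Kmt2e and Kmt2d) and Kdm4d was gained, while 2 stayed called in IVF (Ehmt2 and Setd1b). Leaving out single libraries moved the IVF count between 1 and 14.

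Whether the IVF difference itself changed with age was tested in the joint fit. At 12 weeks against E18.5 the difference of 0 members changed by edgeR (5 at an unadjusted p under 0.05), against 0.314% of all genes. DESeq2 called 1 member there, against 259 of 19724 genes higher and 88 lower. At 39 against 12 weeks it was again 0 by edgeR (1 at an unadjusted p under 0.05), against 2.71% of all genes. DESeq2 called 0 members there, against 1060 genes higher and 477 lower. At 39 weeks against E18.5, 3 members were called lower and 0 higher, against 2.85% and 5.10% of all genes: Kmt2c by -0.85 (SE 0.22, adjusted p = 0.0193), Setd1a by -0.62 (SE 0.15, adjusted p = 0.0121) and Kdm3a by -0.55 (SE 0.15, adjusted p = 0.0237). These genes were higher in IVF at E18.5 and had negative differences of -0.18, -0.18 and -0.09 at 39 weeks. With exon length offsets Kmt2c and Kdm3a stayed called, Setd1a did not, and Kdm6a (lower) and Kdm5b (higher) were added.

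The widest differences among members lay between cell types. PGCs, oocytes and cumulus cells were joined on 1 scale, in which cell type and table cannot be told apart and another scaling (median ratio factors in place of TMM) moved the median of all genes by 0.13 to 0.23 (log2). In Natural 12-week oocytes against PGCs, 21 of 43 members were higher and 14 lower, against 37.4% and 39.4% of all genes. In IVF 22 were higher and 14 lower, against 38.7% and 38.5%. Members were thus called about as often as other genes. The split rests on the scale: with library sizes alone in place of TMM factors, an alternative chosen after seeing the data, 6 members were higher and 25 lower in Natural and 7 and 25 in IVF, and the median of all genes moved from -0.17 to -1.87 and from -0.08 to -1.62. The 5 members with the largest rises and the 5 with the largest falls kept their call and direction under that scaling in both groups.

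On the TMM scale both H3K27 methyltransferases and all 3 H3K27 demethylases were higher in oocytes. Ezh2 stood at 49.8, 59.2, 58.5 and 60.5 CPM in Natural PGCs and at 1288, 1333, 957, 1019 and 1165 CPM in Natural oocyte sets (log2 4.34, SE 0.53), and at 46.6, 34.8, 6.65, 4.76 and 3.79 CPM in Natural cumulus cells (cumulus against oocyte -5.90, SE 0.52). No PGC or cumulus library came near the oocytes. The 2 Natural cumulus libraries at 46.6 and 34.8 CPM carry one kind of library name and the 3 lower ones another, and the IVF cumulus libraries parted the same way, at 19.9 and 20.1 CPM against 9.37, 6.79 and 11.6 CPM; cells and library round cannot be told apart there. Kdm6b stood at 0, 7.66, 0.967 and 0 CPM in Natural PGCs and at 252, 197, 288, 303 and 202 CPM in oocytes (log2 6.69, SE 0.93). The second Natural PGC library, which stood apart in all genes (median correlation 0.869), held most of the PGC signal. Kdm7a (5.02, SE 0.41) and Kdm6a (4.02, SE 0.37), another H3K27 demethylase, rose with it.

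Kdm1b, the demethylase known from oocyte imprinting, stood at 51.2, 36.6, 26.0 and 13.7 CPM in Natural PGCs, at 388, 346, 446, 470 and 602 CPM in oocytes and at 6.31, 11.5, 12.5, 9.10 and 8.01 CPM in cumulus cells. The oocyte value was higher by 3.82 (SE 0.35) against PGCs and the cumulus value lower by 5.57 (SE 0.35) against oocytes, on the log2 scale. Its paralog Kdm1a stood at 9.80 ± 2.56 RPKM in Natural PGCs (CPM per kb of exon; SD, n = 4) and 9.66 ± 0.990 RPKM in oocytes (SD, n = 5) on the joint scale, a log2 difference of -0.02 (SE 0.30, adjusted p = 0.949 by edgeR). In the separately scaled tables it was at 18.1 and 5.79 RPKM, so its order depends on the scale. Suv39h2, an H3K9 methyltransferase, was at 57.9 to 96.1 CPM in Natural oocytes and 0 to 1.66 CPM in cumulus cells. Setdb2 had a mean of 3.19 CPM in Natural oocytes and was at 0 counts in all 10 cumulus libraries, at least 25.5-fold lower in Natural and 25.3-fold lower in IVF (floor of 3 counts over the group).

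Other members had few reads in the oocytes, which were collected the day after hCG and read in poly(A)-primed libraries. Kmt2a, the founding member of the KMT2 family, stood at 54.0, 243, 43.1 and 53.3 CPM in Natural PGCs, at 1.05, 0.507, 0, 1.16 and 2.99 CPM in oocytes and at 16.4, 22.1, 15.2, 25.9 and 21.1 CPM in cumulus cells. Its log2 difference was -6.34 (SE 0.65) for oocytes against PGCs and 4.05 (SE 0.59) for cumulus cells against oocytes. Ehmt2 stood at 39.5, 55.0, 31.6 and 33.1 CPM in Natural PGCs, at 0.591, 1.18, 2.25, 0.539 and 2.75 CPM in oocytes and at 22.5, 27.1, 24.5, 25.9 and 25.5 CPM in cumulus cells (log2 -4.79, SE 0.40, and 4.12, SE 0.38). Both genes thus dipped in oocytes between higher values on either side. Kdm5a (-5.05), an H3K4 demethylase, Suv420h2 (-4.36) and Suv420h1 (-3.91), which add further methyl groups to H4K20, had the same order, and Kdm4b was higher in cumulus cells than in oocytes by 3.45.

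The IVF libraries gave the same calls for these genes: Kdm6b 7.85, Kdm7a 4.95, Ezh2 4.25, Kdm6a 4.08 and Kdm1b 3.33 higher in oocytes than in PGCs, and Kmt2a -6.26, Ehmt2 -5.08, Kdm5a -4.69, Suv420h2 -3.74 and Suv420h1 -3.02. The 10 values are log2 differences, each with an adjusted p under 0.05 by edgeR. In cumulus cells against oocytes, 13 members were higher and 25 lower in Natural (37.6% and 41.9% of all genes) and 12 higher and 25 lower in IVF (35.6% and 42.8%). With library sizes alone these were 17 and 19 in Natural and 14 and 19 in IVF.

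**Figure D5:**
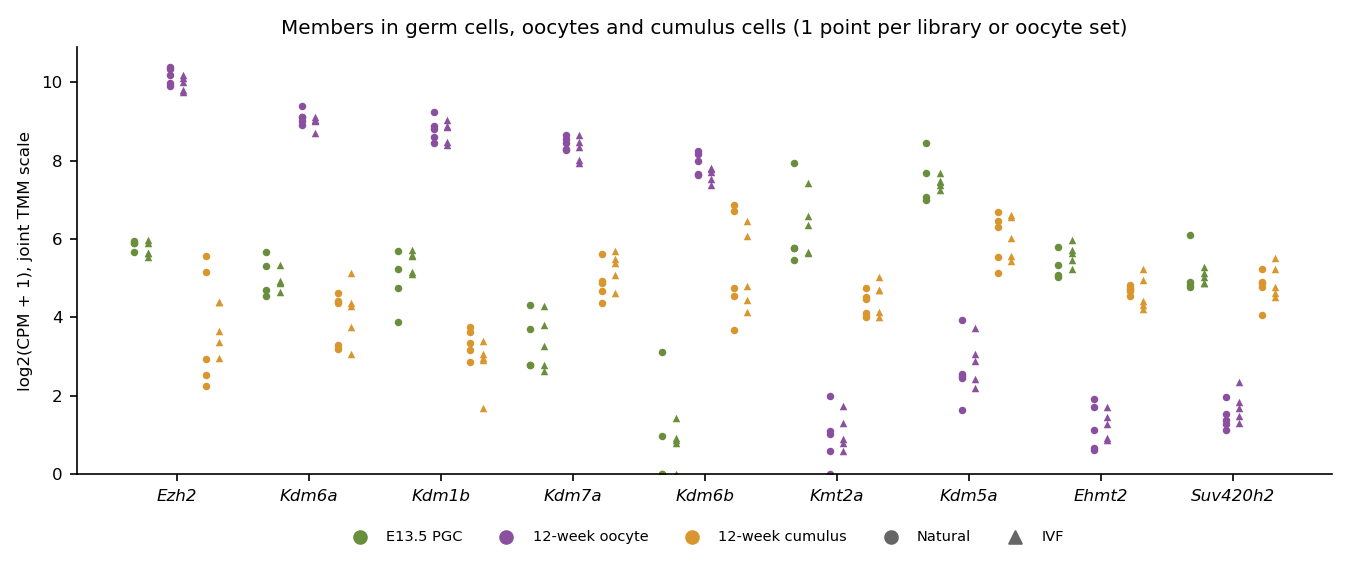
Levels as log2(CPM + 1) on the joint scale (vertical axis) of 9 members in PGCs (green), 12-week oocyte sets (purple) and cumulus cells (orange), with circles for Natural and triangles for IVF. Ezh2, Kdm6a, Kdm1b, Kdm7a and Kdm6b are highest in oocytes, and Kmt2a, Kdm5a, Ehmt2 and Suv420h2 are lowest there.

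Promoters of a pair of members that were high in oocytes (Ezh2, Kdm1b) and a pair that was low (Ehmt2, Kmt2a) are shown because their levels differ widely between the cell types. Each is the 250 bases before a RefSeq start site in mouse build GRCm38.p6, 5′ to 3′ on the gene's strand, with E-boxes (CANNTG, a palindrome and so the same on both strands) in capitals.
Ezh2 (chr6:47595031-47595280, minus strand): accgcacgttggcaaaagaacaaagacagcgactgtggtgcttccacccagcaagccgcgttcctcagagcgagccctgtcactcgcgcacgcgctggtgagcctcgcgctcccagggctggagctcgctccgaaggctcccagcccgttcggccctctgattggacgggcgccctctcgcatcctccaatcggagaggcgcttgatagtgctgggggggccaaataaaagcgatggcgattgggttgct
Kdm1b (chr13:47043249-47043498, plus strand): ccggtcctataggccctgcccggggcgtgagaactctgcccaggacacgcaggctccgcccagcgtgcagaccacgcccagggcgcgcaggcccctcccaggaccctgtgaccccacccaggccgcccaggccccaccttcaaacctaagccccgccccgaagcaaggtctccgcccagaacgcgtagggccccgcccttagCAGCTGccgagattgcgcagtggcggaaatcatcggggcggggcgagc
Ehmt2 (chr17:34898224-34898473, plus strand): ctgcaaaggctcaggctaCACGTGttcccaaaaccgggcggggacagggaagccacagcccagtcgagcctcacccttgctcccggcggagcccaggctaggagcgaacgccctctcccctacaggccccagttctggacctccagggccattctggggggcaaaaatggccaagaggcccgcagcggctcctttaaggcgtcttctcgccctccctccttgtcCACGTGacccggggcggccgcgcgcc
Kmt2a (chr9:44881290-44881539, minus strand): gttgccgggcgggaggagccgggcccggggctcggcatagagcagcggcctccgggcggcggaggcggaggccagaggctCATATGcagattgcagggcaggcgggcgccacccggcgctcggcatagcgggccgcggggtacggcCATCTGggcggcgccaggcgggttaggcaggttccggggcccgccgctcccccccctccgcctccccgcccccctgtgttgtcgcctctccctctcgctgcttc
The windows held 0, 1, 2 and 2 E-boxes and 23, 22, 18 and 29 CG dinucleotides in this order. In these windows CG content did not part the oocyte-high from the oocyte-low pair, but Ehmt2 has 2 RefSeq promoters and 1 is shown. In the whole RefSeq windows described below, the shown Ehmt2 promoter held 28 CG dinucleotides and the other 40. Ezh2 held 31, Kdm1b 26 and Kmt2a 36 there, so the pairs parted with the other Ehmt2 promoter and not with the shown one. Further members with large rises or falls from PGCs to oocytes did not part by CG counts. Kdm7a (65) and Kdm6a (21) were higher in oocytes, and Suv420h2 (22) and Suv420h1 (16 and 38) were lower there.

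Motifs were counted in the whole RefSeq windows of 300 bases, which run on past the start site, so their counts differ from those in the letters above. In these, 35 members matched 47 promoters. A CANNTG was in 61.7% of these and in 72.3% of all 32851 promoters, and the homeobox motif TAATTG (with its reverse complement) was in 0 of the 47 and in 8.00% of all. The median number of CG dinucleotides was 28 per member promoter and 7 per promoter of all genes. No RefSeq window matched Kdm2a, Kdm3b, Kdm4b, Kdm5a, Kdm6b, Kmt2b, Kmt2e, Nsd1 or Setd1b, so these members are not part of the counts.

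Per length, in RPKM, the order of the members changed with the tissue. In ovaries Ehmt2 was the highest member at each age, at 91.6 ± 11.1 RPKM (SD, n = 4) in Natural and 99.6 ± 23.9 RPKM (SD, n = 6) in IVF at E18.5, 66.1 ± 0.930 and 62.8 ± 2.39 RPKM at 12 weeks and 66.9 ± 4.12 and 76.8 ± 8.13 RPKM at 39 weeks. Kmt5a came next at 12 weeks, at 62.2 ± 6.44 RPKM in Natural, within its spread of Ehmt2. The lead of Ehmt2 ended in isolated cells, where it stood at 17.9 RPKM in Natural PGCs, 6.01 RPKM in cumulus cells and 0.215 RPKM in oocytes.

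In oocytes Ezh2 was the highest member, at 246 ± 34.8 RPKM (SD, n = 5) in Natural and 212 ± 27.7 RPKM in IVF. Kdm6a (55.9 ± 6.40 RPKM in Natural) and Kdm1b (54.2 ± 12.4 RPKM) followed and did not differ beyond their spread. In PGCs Setd6 (55.8 ± 6.32 RPKM in Natural) and Suv39h1, an H3K9 methyltransferase (47.5 ± 1.23 RPKM), led, followed by Setdb1 and Ezh2. In cumulus cells Ezh1 led at 21.3 ± 4.13 and 24.1 ± 3.71 RPKM, where Ezh2 was at 7.11 ± 7.63 and 4.75 ± 2.02 RPKM.

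Levels in ovaries and in isolated cells came from different library kits and each table was scaled on its own, so the values of the remaining named members are given side by side, in RPKM of the Natural groups. Ezh1 was at 9.70 in PGCs, 14.2 in oocytes, 21.3 in cumulus cells and 12.4, 15.2 and 16.3 in ovaries at E18.5, 12 and 39 weeks, while Ezh2 was at 37.8 in PGCs and at 24.4, 11.6 and 8.06 in these ovaries. On the joint scale Ezh1 was 4.54-fold higher in Natural oocytes than in PGCs, a wider gap than between the separately scaled values. Setdb1 was at 39.7 in PGCs, 20.5 in oocytes, 3.94 in cumulus cells and 27.5, 15.8 and 14.5 in the ovaries.

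Kmt2b was at 20.5, 11.9 and 15.4 RPKM in Natural ovaries at the 3 ages and at 3.45 in PGCs, 2.42 in oocytes and 0.870 in cumulus cells. Setd1b was at 17.3, 9.31 and 13.4 in the ovaries and under 1 RPKM in PGCs (0.736), oocytes (0.576) and cumulus cells (0.704). Kmt2d was at 16.8, 9.42 and 16.3 in the ovaries, 9.31 in PGCs, 15.6 in oocytes and 3.55 in cumulus cells, so that it was the highest of these 3 H3K4 methyltransferases in each kind of isolated cell. Setd2, which trimethylates H3K36, was at 17.9, 11.3 and 15.2 in the ovaries, 16.6 in PGCs, 4.13 in oocytes and 2.96 in cumulus cells. Dot1l was at 18.2, 15.1 and 18.1 in the ovaries, 14.1 in PGCs, 9.24 in oocytes and 2.55 in cumulus cells.

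Among the demethylases, Kdm1a was at 33.4, 25.4 and 21.9 RPKM in Natural ovaries at the 3 ages, 18.1 in PGCs, 5.79 in oocytes and 3.23 in cumulus cells. Kdm1b took another order, with 39.4, 5.16 and 5.65 in the ovaries, 11.9 in PGCs, 54.2 in oocytes and 1.86 in cumulus cells. Kdm4a was at 25.0, 21.8 and 21.8 in the ovaries and at 1.29 in PGCs, 1.88 in oocytes and 0.759 in cumulus cells. Kdm5b was at 24.6, 10.2 and 10.5 in the ovaries, 18.6 in PGCs, 0.445 in oocytes and 4.63 in cumulus cells. Kdm6b ran opposite to Kdm5b in the germ cells, at 0.570 in PGCs and 22.3 in oocytes, and stood at 8.61 in cumulus cells and 29.7, 15.0 and 17.0 in the ovaries.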

How the data were processed

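Counts of reads per gene were deposited in 7 tables. Per the labels and the study's methods the authors trimmed the reads, used STAR for alignment on mouse build mm10 and featureCounts for gene counts; the submitters' processing notes name Trimmomatic 0.32, STAR 2.3.0e and featureCounts 1.5.0. Ovary libraries were stranded mRNA libraries, and PGC, oocyte and cumulus libraries were made from few cells by poly(A)-primed amplification. Between 26.8% and 43.5% of the nonzero deposited counts were odd. Total counts per library ran from 839781 to 43363799, and intervals on summed counts cover counting error only.

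Members were found by name and tested with edgeR 4.0.16 (quasi-likelihood, TMM, filterByExpr, Benjamini-Hochberg over all genes, R 4.3.3) in each table, and in a joint fit for ages and for cell types. The members and gene lists were chosen with earlier results of these data known. Members named in the text are those called or not overlapping between groups (at most 12 per comparison), otherwise the 2 with the smallest p, the 5 largest rises and falls in age and cell type contrasts, and 14 members given in every table. CPM are TMM-scaled. The study named DESeq2, which was an alternative (1.42.0), beside median ratio scaling, library sizes alone (cell types, added after seeing the data), no filter, a minimum of 10 counts in every library, a replicate block and leaving out each library. RPKM and the exon length classes used GENCODE exon lengths (union of a gene's exons). Single 12-week oocytes were summed by the start of their names, which is nested in group. Nothing says that all samples came from separate animals, so p-values measure the spread between these samples. The scripts were tested on simulated data. Cumulus cells at 39 weeks were not analysed here, and promoter letters come from RefSeq (GRCm38.p6).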

Additional observations from a re-analysis of the deposited data

Results flagged for a closer look

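The difference between IVF and Natural ovaries changed between E18.5 and 39 weeks, by an interaction term in the joint edgeR fit, for Kmt2c (-0.85), Setd1a (-0.62) and Kdm3a (-0.55), each a change in log2 difference. Of all genes, 2.85% were called lower and 5.10% higher in this term. Its median was -0.17 for genes over 6 kb and 0.29 for those under 2 kb, and with exon length offsets Setd1a lost its call. Single ovaries stood apart from the rest of their group in 4 of 46 member and group pairs, where chance gives about 1 in 20. These were Kmt2a in an IVF ovary at E18.5 (298 CPM), Ehmt1 in an IVF ovary at E18.5 (152 CPM), Ehmt1 in a Natural ovary at E18.5 (95.0 CPM) and Ehmt2 in a Natural ovary at 12 weeks (278 CPM).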

How the results depend on the processing

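Counts of members called at E18.5 moved most with the processing. Against 6 called with edgeR, DESeq2 called 11, exon length offsets left 0 and the replicate block 0. Leaving out 1 ovary gave 4 to 16, the last without Natural replicate 1. Of all 16415 genes, DESeq2 called 933 higher and 991 lower, the offsets 145 and 114, and the block 2 and 1. The 0 under the block thus says little about the members in particular. From 12 to 39 weeks in Natural ovaries, offsets gave 6 against 14, of which 5 were among the 14. The offsets called 1907 of all 19724 genes higher there and 2003 lower. In IVF ovaries, against 8, DESeq2 called 13, offsets 2 and the replicate block 4, and leaving out 1 library gave 1 (without IVF replicate 4 at 39 weeks) to 14 (without IVF replicate 1 at 39 weeks), with 2 to 5 without Natural replicate 1 or IVF replicates 1, 3, 4 or 5 at 12 weeks and without IVF replicate 2 or 5 at 39 weeks. Over all 19724 genes in that IVF comparison, DESeq2 called 1289 higher and 728 lower, offsets 657 and 315, and the block 677 and 306. Of the changes of the IVF difference, that from E18.5 to 12 weeks gave 1 with DESeq2 against 0, beside 259 of all genes higher and 88 lower. That from E18.5 to 39 weeks, at 3, gave 10 with DESeq2, 5 with median ratio scaling, 9 with at least 10 counts in every library and 2 to 7 with 1 library left out, the last without Natural replicate 1 at E18.5 or at 39 weeks. Over all 19724 genes, that change was called higher for 1362 and lower for 1085 by DESeq2, and for 842 and 675 with median ratio scaling. With at least 10 counts in every library it was 956 and 644 of 12330 genes. The median log2 ratio of 39-week oocytes, -0.08, was -0.17 over genes with at least 100 counts and turned to 0.14 with TMM scaling. The cause was not tested, apart from the offsets, which remove the length trend by construction. In no table did every pair of same-numbered samples correlate above 0.1, although 3 of 4 pairs of PGCs and 3 of 5 of 39-week ovaries did and matched their own number best, so the numbers were not taken as pairs and the block is given here only. Scaling by library size alone kept the number of calls between cell types within 1.5-fold but not their split. In the values of single members, 3831 kept their call, 73 lost it and 10 gained it.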
